A study of Mus musculus with 4 samples.

Results

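The genes described here encode the constant regions of the T cell receptor (Trac, Trbc1, Trbc2 and Trdc), the CD3 chains that carry its signal (Cd3d, Cd3e, Cd3g and Cd247), the coreceptor Cd4 and the kinase Lck. They are 10 of the 55401 gene models in the deposited tables and were found by gene name, 1 row each. All 10 passed the filter on low values (a mean of at least 1 FPKM, fragments per length of transcript, scaled to the library), Cd3e, Cd247 and Cd4 only through their IL-33 values. The genes were selected on their FPKM in these same 4 libraries, Ang II against IL-33, so their levels are given as a description, with no test. ILC2s (group 2 innate lymphoid cells) from lungs of C57BL/6 mice were kept for 6 h with IL-33 plus Ang II (angiotensin II), a peptide hormone of blood pressure control, or without it, that is with IL-33 alone, and IL-33 is an alarmin that activates ILC2s. The labels call the cells purified without saying how. Each of the 4 samples held 500 cells, 2 samples per group, and every sample received IL-33, so neither group is unstimulated. Nothing in the labels ties a sample to a mouse or culture of its own, so any spread between samples may be technical.

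A T cell receptor is a pair of chains, alpha with beta or gamma with delta, each built by joining variable, diversity and joining segments in front of a constant region. The chains have short tails and signal only through the CD3 gamma, delta and epsilon subunits and the zeta chain (Cd247), whose tyrosine motifs are phosphorylated by Lck, which Cd4 brings to the receptor. ILC2s arise without a functional antigen receptor on their surface, yet constant region and CD3 transcripts are known to be made in innate lymphoid cells, so a transcript alone does not show a receptor.

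The beta constant genes lie in tandem on chromosome 6, 6848 bases apart, and share most of their coding sequence. Over 500 compared bases of the annotated coding exons, 96.2% were identical, base by base from the start of each exon, and in the first coding exon 1 base of 375 differed. The longest run without a difference there was 259 bases, so a fragment from within it cannot be given to either gene, and the split between Trbc1 and Trbc2 depends on how the authors' counting treated such fragments. The stretches below (GENCODE M21, mm10, plus strand) are shown because this likeness limits how well coding fragments can be given to 1 of the genes. Exon models span 749 bases for Trbc1 and 692 for Trbc2, and their untranslated bases were not compared. Capitals mark bases that differ between the genes. The first pair surrounds the differing base of coding exon 1 (Trbc1 at chr6:41538437-41538516, Trbc2 at chr6:41546949-41547028), and the second pair is the 107 bases compared in coding exon 3, of which 15 differ (Trbc1 at chr6:41539229-41539335, Trbc2 at chr6:41547772-41547878).
Trbc1 exon 1: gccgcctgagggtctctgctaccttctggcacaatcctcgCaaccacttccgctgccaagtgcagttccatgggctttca
Trbc2 exon 1: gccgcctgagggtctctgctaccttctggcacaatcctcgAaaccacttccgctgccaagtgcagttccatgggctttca
Trbc1 exon 3: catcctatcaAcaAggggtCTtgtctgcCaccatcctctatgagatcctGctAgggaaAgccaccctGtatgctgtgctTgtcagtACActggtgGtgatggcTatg
Trbc2 exon 3: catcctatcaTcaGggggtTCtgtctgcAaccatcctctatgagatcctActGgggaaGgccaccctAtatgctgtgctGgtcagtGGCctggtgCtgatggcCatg

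The libraries were first set against each other. FPKM summed to 394808 to 426140 in the Ang II libraries and to 430980 to 431014 in the IL-33 libraries, and 12028 to 13401 gene models per library were above 0. The files give no counts, so depth is unknown, and values carry counting error that cannot be stated. For 3408 genes of low to middle abundance the IL-33 libraries differed by 1.02 times the counting noise of the depth implied by how often low genes were listed at 0 in 1 of them, and were counted as 1 sample. Whether they are separate samples or 1 library sequenced again cannot be told from the files, so lying outside both IL-33 libraries means little more than lying outside 1 of them. For 5804 genes the gap between the Ang II libraries was 11.99 times that noise. Across 9215 genes, log2(FPKM + 1) correlated at Pearson r = 0.568 between the Ang II libraries and 0.994 between the IL-33 libraries. ILC2 identity genes were present, with summed FPKM of 5548 to 6274 with Ang II and 4427 to 4454 with IL-33. Calca alone, a neuropeptide gene, made 3532 and 3138 FPKM of that with Ang II and 1989 and 1995 FPKM with IL-33, and without it the sums overlapped (2410 to 2742 with Ang II, 2437 to 2459 with IL-33). Of the other genes of that list, Il5 was listed at 0 in all 4 libraries and Thy1 did not exceed 0.09 FPKM.

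**Figure D1:**
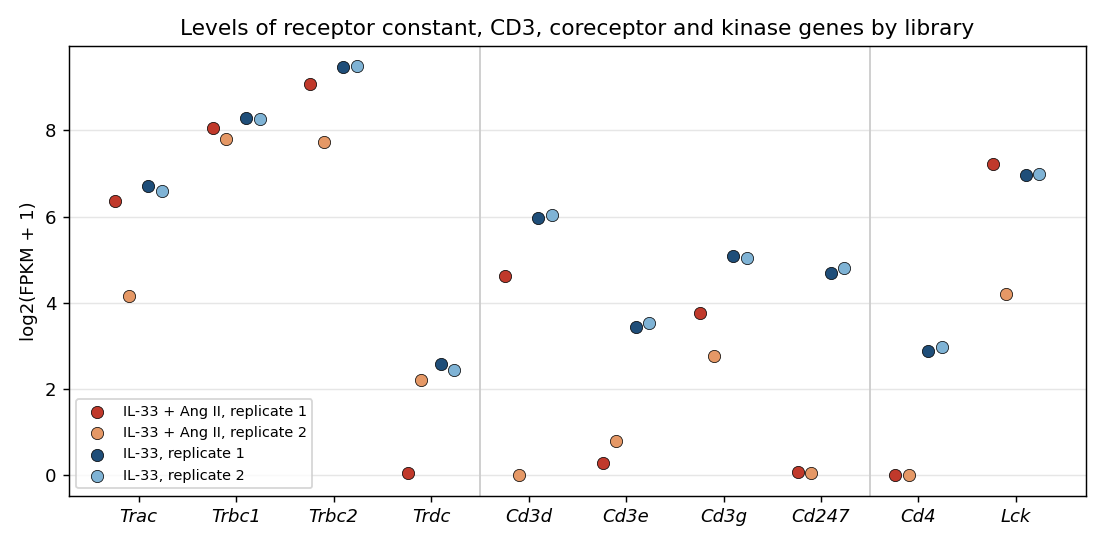
Levels of the 10 genes in each library, as log2(FPKM + 1), with IL-33 plus Ang II in reds to the left and IL-33 in blues to the right of each gene; each point is 1 library. The IL-33 points nearly coincide, while the Ang II points lie below them for every gene except Lck and stand far apart for Trac, Trdc, Cd3d and Lck.

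Both Ang II libraries lay below both IL-33 libraries for 9 of the 10 genes, and for 0 genes did both lie above. Of all 9215 genes tested, 33.5% lay below and 24.4% above in the same sense. Of the 3437 genes at 10 to 100 FPKM with IL-33, where 5 of the members lie, 51.2% lay below. Lck was the exception. The 9 genes stayed below under each of 3 other scalings of the libraries. The median log2 difference of the 10 genes, on the log2(FPKM + 1) scale that understates changes of low genes, was -1.59 (-1.34 in Ang II replicate 1 and -2.59 in replicate 2), against 0.00 over all genes tested. Cd4, listed at 0 with Ang II, lies on the lower side of the median of the 10, which a lower value for it would not move. The 0.00 is over genes at any IL-33 level, those near 0 with IL-33 included. No median was taken over genes at a level like that of the 10. In RNA from whole samples, fewer cells that make a transcript and less of it per cell cannot be told apart.

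The beta constant genes gave the most abundant transcripts of the set. Trbc2 (chr6:41546730-41548352, plus strand), a constant part of the beta chain, stood at 541 and 211 FPKM with Ang II and at 710 and 717 FPKM with IL-33. Trbc1 (chr6:41538218-41539881, plus strand), the alternative constant part, stood at 267 and 220 FPKM with Ang II and at 314 and 306 FPKM with IL-33. On the log2(FPKM + 1) scale Trbc2 differed from the IL-33 mean by -0.40 in Ang II replicate 1 and -1.75 in replicate 2. Neither gene's groups overlapped, but Trbc1 kept 86.2% and 71.0% of its IL-33 mean in the 2 Ang II libraries, and Trbc2 kept 75.9% and 29.6%. Trbc2 was among the most abundant transcripts of a library, at rank 110 and 303 with Ang II and at rank 62 and 64 with IL-33. Trbc1 made up 33.1% and 51.0% of the summed Trbc1 and Trbc2 level with Ang II, against 30.7% and 29.9% with IL-33. This share stood apart in Ang II replicate 2 alone, and the identity of the coding exons shown above limits it.

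Trac (chr14:54220521-54224206, plus strand), the only constant gene of the alpha chain, stood at 81.3 and 17.0 FPKM with Ang II and at 103 and 96.3 FPKM with IL-33. The groups did not overlap, yet replicate 1 with Ang II was near the IL-33 values (a log2 difference of -0.29) and replicate 2 far below them (-2.48). Set against the summed beta constants, a ratio that does not depend on how libraries are scaled, Trac was 10.1% and 3.94% with Ang II and 10.1% and 9.42% with IL-33. Alpha transcripts thus stood well below beta transcripts per length in all 4 libraries. Trdc (chr14:54142851-54148868, plus strand), the constant region of the delta chain, stood at 0.03 and 3.59 FPKM with Ang II and at 4.98 and 4.4 FPKM with IL-33. Its low value in Ang II replicate 1 and near-IL-33 value in replicate 2 (log2 differences of -2.47 and -0.31) are the reverse of the order seen for Trac, which lies 71652 bases away on chromosome 14.

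**Figure D2:**
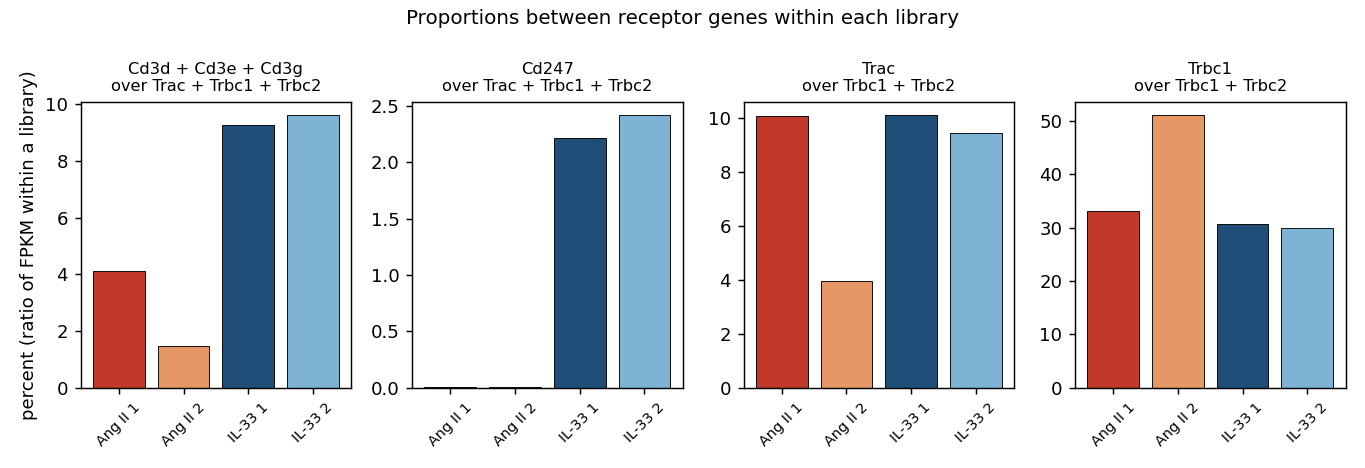
Proportions between receptor genes within each library, in percent of FPKM, with the Ang II libraries as the left pair of bars and the IL-33 libraries as the right pair in each panel. CD3 chains were 4.11% and 1.45% of the receptor constants with Ang II, against 9.27% and 9.60% with IL-33, and Cd247 bars are too low to see with Ang II.

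The gamma constant genes, which were not among the 10, followed no common direction. Trgc1 stood at 0.23 and 0 FPKM with Ang II and at 81.7 and 85.5 FPKM with IL-33. Trgc4 stood at 42.3 and 87.8 FPKM with Ang II and at 79.4 and 77.6 FPKM with IL-33, so its groups overlapped. Trgc2 stood at 62.7 and 0 FPKM with Ang II and at 17.6 and 14.8 FPKM with IL-33, and Trgc3 did not exceed 0.08 FPKM. The gamma genes lie on chromosome 13 and share sequence, so fragments may have been split between them.

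The CD3 chains were lower relative to the receptor constants as well as in level. Cd3d, which encodes the delta subunit, stood at 23.8 FPKM in Ang II replicate 1 and was listed at 0 in replicate 2, against 61.3 and 65.2 FPKM with IL-33. Cd3g, which encodes the gamma subunit, stood at 12.6 and 5.79 FPKM with Ang II and at 33.2 and 31.7 FPKM with IL-33. Of the 3 subunits, Cd3g alone was above 1 FPKM in both Ang II libraries. Cd3e, which encodes the epsilon subunit shared by both CD3 pairs, stood at 0.22 and 0.74 FPKM with Ang II and at 9.92 and 10.6 FPKM with IL-33, or 2.15% and 7.22% of its IL-33 mean. The groups did not overlap for any of the 3, and the log2 differences were -1.80 for Cd3g and -2.95 for Cd3e. With a pseudocount of 0.1 in place of 1, Cd3e was at -4.32. Cd3d was at -1.38 in Ang II replicate 1, and no log2 difference is given for replicate 2, where it is listed at 0. The summed FPKM of the 3 was 36.6 and 6.53 with Ang II, against 104 and 107 with IL-33. As a percentage of Trac, Trbc1 and Trbc2 summed, that was 4.11% and 1.45% with Ang II and 9.27% and 9.60% with IL-33. The proportions among the subunits were not kept either. Cd3d made up 65.0% and 0% of the 3 with Ang II, against 58.7% and 60.7% with IL-33, and Cd3e made up 0.60% and 11.3% with Ang II, against 9.49% and 9.85% with IL-33.

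Cd247, which encodes the zeta chain with the most tyrosine motifs of the complex, stood at 0.05 and 0.03 FPKM with Ang II and at 25.0 and 27.0 FPKM with IL-33. Both Ang II values are near 0, so its log2 difference is set by the pseudocount, at -4.70 with 1 and -7.55 with 0.1. Against the receptor constants, Cd247 was 0.0056% and 0.0067% with Ang II and 2.22% and 2.42% with IL-33. Cd4 (chr6:124864692-124888221, minus strand), which binds MHC class II beside the receptor, had a listed 0 in each Ang II library, against 6.32 and 6.92 FPKM with IL-33. No fold is given for Cd4 either, since a listed 0 need not mean absence. Of all genes tested, 7.97% were at 1 FPKM or more in both IL-33 libraries and under 0.1 FPKM in both Ang II libraries, as Cd247 and Cd4 were. The share was 9.86% of genes at 10 to 100 FPKM with IL-33 and 21.3% of those at 1 to 10 FPKM.

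Lck (chr4:129548344-129573641, minus strand), the kinase that starts receptor signalling, stood at 148 and 17.5 FPKM with Ang II and at 124 and 125 FPKM with IL-33. Replicate 1 with Ang II was above both IL-33 libraries and replicate 2 far below them, so the groups overlap. Lck was 16.6% and 3.91% of the summed receptor constants with Ang II, against 10.96% and 11.2% with IL-33. Trac showed a like gap between the Ang II libraries, with 17.0% of the IL-33 mean in replicate 2, where Lck had 14.1%.

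**Figure D3:**
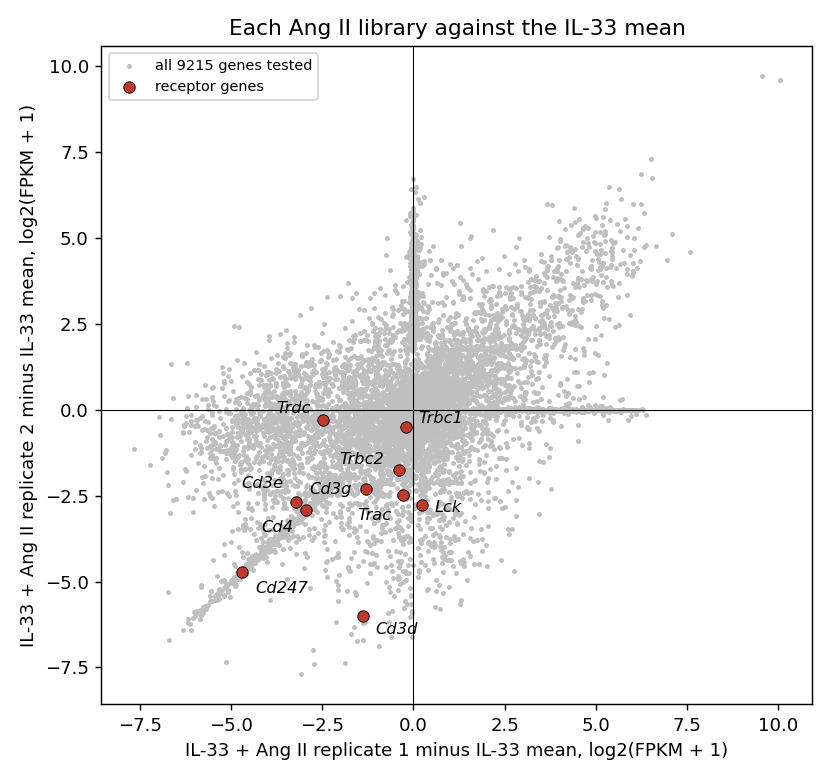
Difference of each Ang II library from the IL-33 mean in log2(FPKM + 1), with replicate 1 on the x axis and replicate 2 on the y axis; grey points are the 9215 genes tested and red points the 10 receptor genes. Cd247 and Cd3e lie near the diagonal, at -4.69 and -4.71 and at -3.20 and -2.69, while Lck lies at 0.25 on the x axis and -2.76 on the y axis.

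In order of level, the IL-33 libraries gave Trbc2, Trbc1, Lck, Trac, Cd3d, Cd3g, Cd247, Cd3e, Cd4 and Trdc, and no neighbours in that order overlapped between the 2 libraries, which differ by little more than counting noise. With Ang II the order by mean was Trbc2, Trbc1, Lck, Trac, Cd3d, Cd3g, Trdc, Cd3e, Cd247 and Cd4. There Trbc2 and Trbc1 overlapped, as did Lck and Trac, Trac and Cd3d, Cd3d and Cd3g, and Trdc and Cd3e. Cd247 ranked below both Cd3g and Cd3e with Ang II and between them with IL-33.

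The Cd3g, Cd3d and Cd3e genes form a cluster on chromosome 9 of mm10. Cd3g (44969572 to 44980431, minus strand) and Cd3d (44981786 to 44987339, plus strand) point away from each other with 1354 bases between them, and Cd3e (44998740 to 45009627, minus strand) follows 11400 bases on. Cd247 lies alone on chromosome 1 (165788681 to 165877277, plus strand). Promoters of 5 of the 10 genes were found in RefSeq's table for GRCm38.p6, the assembly of mm10. The 200 bases before RefSeq's start are printed for the CD3 chain genes, since all 4 were lower in both Ang II libraries; capitals mark CANNTG, the E-box that E proteins such as those of Tcf3 and Tcf12 bind, and GGAAG or its reverse complement, a core bound by ETS factors. The windows are chr9:44980432-44980631 (minus strand) for Cd3g, chr9:44981586-44981785 (plus strand) for Cd3d, chr9:45009612-45009811 (minus strand) for Cd3e and chr1:165788481-165788680 (plus strand) for Cd247.
Cd3g: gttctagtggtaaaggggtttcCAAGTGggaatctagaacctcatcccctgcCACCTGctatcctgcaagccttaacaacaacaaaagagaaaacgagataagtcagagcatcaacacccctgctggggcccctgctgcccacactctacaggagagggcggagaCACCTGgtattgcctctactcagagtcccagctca
Cd3d: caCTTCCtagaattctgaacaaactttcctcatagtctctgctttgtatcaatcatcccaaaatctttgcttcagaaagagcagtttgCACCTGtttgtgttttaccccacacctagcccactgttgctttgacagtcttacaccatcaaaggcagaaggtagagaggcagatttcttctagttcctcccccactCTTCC
Cd3e: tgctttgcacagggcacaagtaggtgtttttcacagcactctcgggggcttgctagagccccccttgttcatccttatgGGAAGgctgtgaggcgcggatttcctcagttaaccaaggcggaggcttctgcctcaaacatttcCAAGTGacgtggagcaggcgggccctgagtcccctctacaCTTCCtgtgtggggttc
Cd247: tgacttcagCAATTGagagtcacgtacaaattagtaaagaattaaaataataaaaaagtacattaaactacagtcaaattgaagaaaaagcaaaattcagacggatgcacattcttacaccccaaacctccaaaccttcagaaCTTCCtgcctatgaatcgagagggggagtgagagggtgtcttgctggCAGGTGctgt

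On both strands, CANNTG matched 3 times in the Cd3g window, once each for Cd3d and Cd3e and 2 times for Cd247. Windows of the same length held it in 58.2% of 32851 promoters. GGAAG matched 2 times for Cd3d and Cd3e, once for Cd247 and 0 times for Cd3g, against 56.8% of promoters with a match, and no match of either motif overlapped the other. Neither TATAAA (9.96% of promoters) nor TGTGGT, a core bound by RUNX factors (11.2%), matched in any of the 4 windows. GATAA, a core bound by GATA factors, matched once, for Cd3g (18.1% of promoters). These motifs were chosen after the windows had been seen, and the matches are a description of letters.

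Receptor segments were listed as rows of their own, and their FPKM rests on short models of 11 to 595 bases, so that few fragments give a high value and near-identical copies can share fragments. Of 262 variable, diversity and joining rows, 215 were listed at 0 in all 4 libraries. At 1 FPKM or more stood 12 and 18 rows in the Ang II libraries, against 18 and 19 in the IL-33 libraries. Of the 18 rows at that level in both IL-33 libraries, 7 were also at it in Ang II replicate 1 (58.3% of that library's 12) and 6 in replicate 2 (33.3% of its 18). Together, 14 rows reached it in an Ang II library and in neither IL-33 library, 5 of them in replicate 1 and 12 in replicate 2. The Ang II libraries shared 7 rows, 58.3% of replicate 1's and 38.9% of replicate 2's, so replicate 1 shared as many rows with IL-33 as with the other Ang II library. Over all gene models, 72.5% of the 6103 at 1 FPKM in Ang II replicate 1 and 65.6% of the 7848 in replicate 2 were also at it in both IL-33 libraries, and the Ang II libraries shared 74.1% of replicate 1's and 57.7% of replicate 2's. These differences in sharing were not tested.

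Trdv4, a delta variable segment upstream of Trdc, gave the highest mean, with 230 and 481 FPKM with Ang II and 260 and 258 FPKM with IL-33. Its groups overlapped, and in all 4 libraries its level per length exceeded that of Trdc. Trbj1-1, a joining segment, stood at 20.6 and 89.1 FPKM with Ang II and at 148 and 161 FPKM with IL-33. Trbv12-1 stood at 44.3 and 0 FPKM with Ang II and at 165 and 164 FPKM with IL-33. Trav14-2 stood at 0.26 and 0.19 FPKM with Ang II and at 105 and 93.6 FPKM with IL-33.

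Of the Trbv rows, 4 reached 1 FPKM in both IL-33 libraries (Trbv12-1 and, named after their values were seen, Trbv14, Trbv13-2 and Trbv12-2), of which 1 did so in Ang II replicate 1 and 0 in replicate 2. Trbv15, chosen after its values were seen, was at 54.7 and 46.04 FPKM with Ang II and listed at 0 with IL-33. Of the Trav rows, the 2 at that level in both IL-33 libraries were at it in neither Ang II library. The Ang II libraries held 4 and 3 and shared 2 of them, though near-identical copies of Trav segments leave the row uncertain. Of the joining rows of the beta chain, 5 reached 1 FPKM in both IL-33 libraries, against 3 in Ang II replicate 1 and 10 in replicate 2, so replicate 2 listed the most although its Trbc2 level was the lowest. Rag1 and Rag2, which cut receptor genes for joining, were listed at 0 in all 4 libraries. Dntt, which adds bases at the joints and was chosen after its values were seen, was at 0 and 21.03 FPKM with Ang II and listed at 0 with IL-33.

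**Figure D4:**
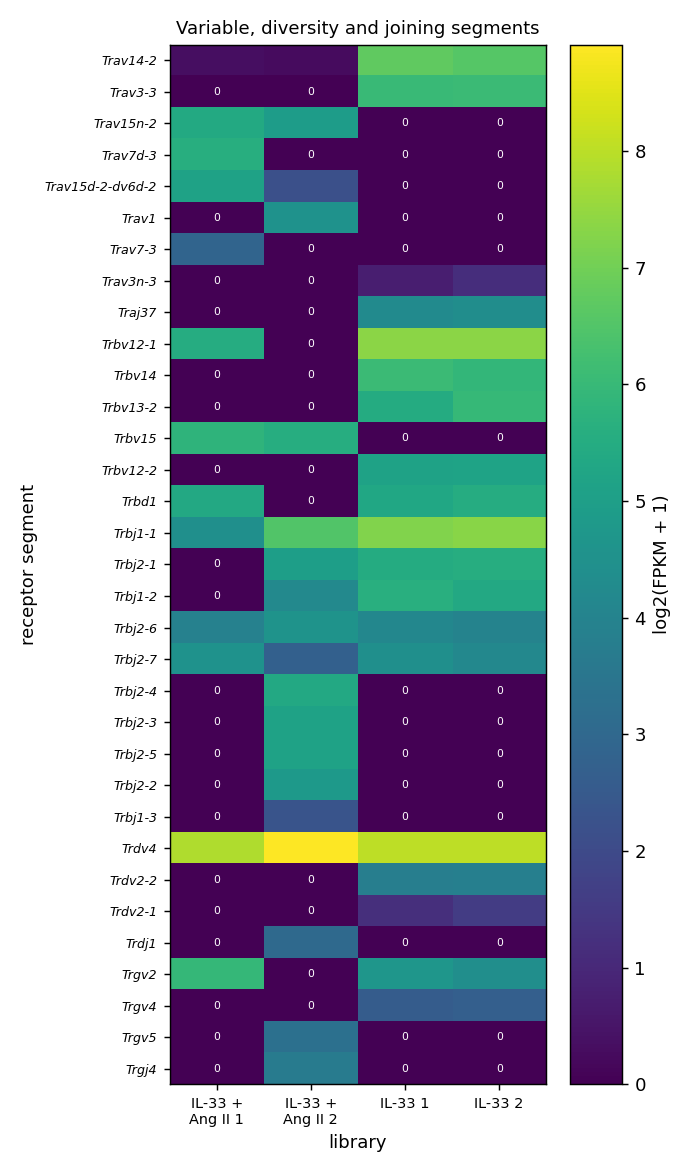
Levels of variable, diversity and joining segment rows that reached 1 FPKM in any library, as log2(FPKM + 1) by colour, with the Ang II libraries in the left columns, the IL-33 libraries in the right columns and a 0 printed where the value is listed at 0. Trdv4 is bright in all 4 columns, while the alpha variable segments bright in the IL-33 columns, such as Trav14-2, are dark in both Ang II columns, and Trbv15 is bright only with Ang II.

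Genes that work with the receptor were described from lists. Of 88 tested genes of 8 lists, both Ang II libraries were above IL-33 for 16 (18.2%) and below it for 41 (46.6%). Over all genes tested, those shares were 24.4% above and 33.5% below. By IL-33 level, from 1 to 1000 FPKM, they were 16.8% to 23.7% above and 41.7% to 51.2% below, so the lists lay within that range. The median log2 difference of the 88 was -0.79, against 0.00 over all genes tested, whatever their IL-33 level. None passed an adjusted p of 0.05 by limma (0 higher, 0 lower), as was the case for 0% of all 9215 genes in either direction. At an unadjusted p under 0.05, 2 were higher and 18 lower, where 2.79% and 10.8% of all genes were. The fit has 1 residual degree of freedom, so a count of 0 says little about which genes differ.

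Of proximal signalling genes, 20 of the 29 found were tested, with 6 above, 8 below and a median of -0.25. Zap70, the kinase that docks on phosphorylated CD3 and zeta tails, stood at 211 and 150 FPKM with Ang II and at 98.6 and 104 FPKM with IL-33, above in both libraries while the zeta transcript was near 0. Sh2d2a, an adaptor of Lck, stood at 66.4 and 92.9 FPKM with Ang II, against 47.1 and 47.8 FPKM with IL-33. Lcp2, the scaffold SLP-76, stood at 125 and 67.6 FPKM with Ang II and at 108 and 110 FPKM with IL-33, and its groups overlapped. Grb2, a general adaptor, was at 117 and 41.6 FPKM with Ang II, against 120 and 120 FPKM with IL-33, below in both. Of 15 tested brakes of receptor signalling, 3 were above and 7 below, with a median of -1.25. Ptprc, counted in that list and among the 3 above though it encodes the phosphatase CD45 that keeps Lck active, stood at 23.1 and 28.7 FPKM with Ang II. With IL-33 it stood at 12.4 and 12.2 FPKM. Sla2, an adaptor that dampens receptor signals, stood at 44.4 and 13.6 FPKM with Ang II, against 2.67 and 2.18 FPKM with IL-33. Dok2, an adaptor that dampens kinase signals, was at 143 and 41.3 FPKM with Ang II and at 85.7 and 86.5 FPKM with IL-33, and Ptpn2, a phosphatase that acts on Lck, was at 0.10 and 33.7 FPKM with Ang II, against 23.6 and 24.1 FPKM with IL-33. Both overlapped between groups, with the Ang II libraries far apart.

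Among other adaptors with tyrosine motifs or their partners, 3 of 4 tested were below and 0 above, with a median of -1.08. Fcer1g, which encodes the gamma chain of Fc receptors, a relative of zeta, stood at 201 and 190 FPKM with Ang II and at 336 and 334 FPKM with IL-33. It was lower in both libraries but remained abundant where Cd247 was near 0. Tyrobp, the adaptor DAP12, stood at 169 and 46.2 FPKM with Ang II, against 229 and 228 FPKM with IL-33. Hcst, which encodes DAP10, was at 0.15 and 56.4 FPKM with Ang II and at 79.8 and 75.3 FPKM with IL-33.

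Of 15 tested regulators of receptor and CD3 genes, 3 were above and 6 below, with a median of -0.29. Gata3, which type 2 lymphocytes and T cells need, stood at 185 and 130 FPKM with Ang II and at 104 and 108 FPKM with IL-33. Id2, an inhibitor of E proteins that innate lymphoid cells depend on, stood at 760 and 489 FPKM with Ang II, against 741 and 746 FPKM with IL-33, and its groups overlapped. Tcf3, an E protein gene chosen after its values were seen, stood at 0.01 and 15.1 FPKM with Ang II, against 10.51 and 10.11 FPKM with IL-33, and Tcf12 was under 1 FPKM throughout. Ets1, an ETS factor of lymphocytes, stood at 20.3 and 33.1 FPKM with Ang II, against 37.3 and 37.9 FPKM with IL-33, below in both. Id3 was listed at 0 throughout. Of 7 tested genes for receptor rearrangement, 1 was above and 3 below (median -0.91), the most abundant being Hmgb2 (39.9 and 56.7 FPKM with Ang II, against 149 and 143 FPKM with IL-33), a chromatin protein that is also a proliferation marker. Of 10 genes for receptor assembly and turnover, 2 were above and 5 below (median -0.16), among them Calr, an ER chaperone (27.8 and 124 FPKM with Ang II, against 68.0 and 68.1 FPKM with IL-33, overlapping).

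**Figure D5:**
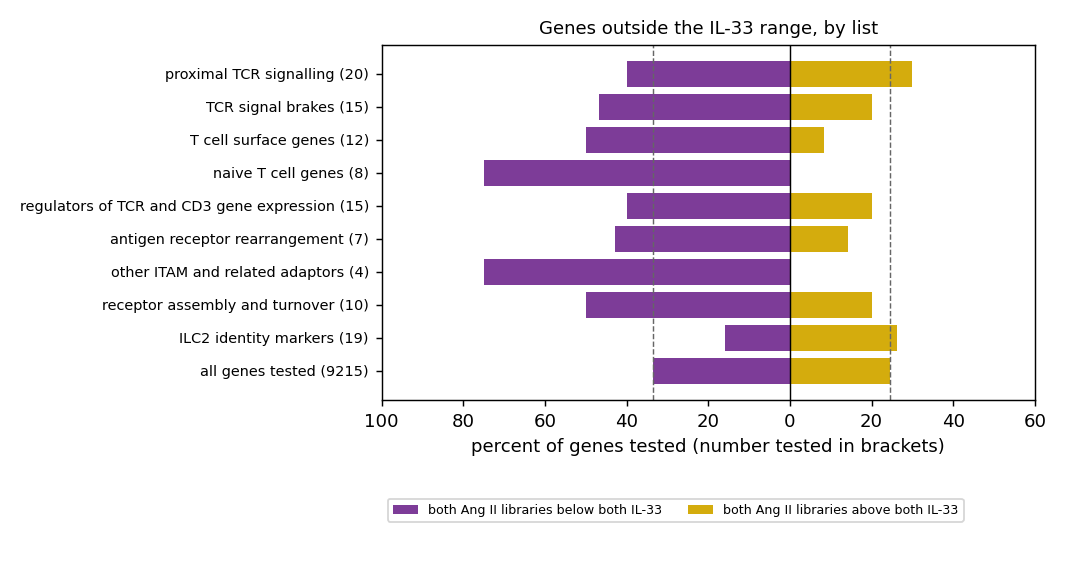
Share of the tested genes of 9 lists, and of all genes tested, with both Ang II libraries below (left bars) or above (right bars) both IL-33 libraries; the number tested stands in brackets and dashed lines mark the shares over all 9215 genes, 33.5% and 24.4%. Among the 9 lists drawn, which leave out the markers of other cells, those of naive T cell genes (6 of 8 below) and of other adaptors (3 of 4 below) reach furthest to the left, and the ILC2 identity list has 5 of 19 above and 3 below.

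Markers of T cells are given beside the receptor genes, and their part in the result was not tested. Of 12 tested T cell surface genes, 1 was above, 6 were below and 5 overlapped (median -1.87). Most of the 12 lie at 1 to 1000 FPKM with IL-33, where 41.7% to 51.2% of all genes lay below by level. Their share below was within that range. They had summed FPKM of 577 to 700 with Ang II and 1049 to 1058 with IL-33. Most of that sum was Pdcd1 (123 and 281 FPKM with Ang II, 531 and 545 FPKM with IL-33) and Icos (264 and 383 FPKM with Ang II, 357 and 348 FPKM with IL-33), which ILC2s also make. Next in abundance, Cd96 overlapped between groups, at 121 and 0.07 FPKM with Ang II, against 49.6 and 47.9 FPKM with IL-33. Tnfrsf4 came to 0 and 0 FPKM with Ang II, against 50.2 and 52.2 FPKM with IL-33. Ly9, the gene above and chosen after its values were seen, was at 34.4 and 16.65 FPKM with Ang II. With IL-33, Ly9 was at 0.06 and 0 FPKM. The T cell genes Cd40lg and Ptcra were listed at 0 in all libraries, and Cd8a and Cd8b1 did not exceed 0.08 FPKM. Of 8 naive T cell genes, 0 were above and 6 below (median -2.81), and their sum was 57.9 to 83.0 FPKM with Ang II and 196 FPKM in both IL-33 libraries. At the IL-33 levels of these 8, 46.7% (1 to 10 FPKM) and 51.2% (10 to 100 FPKM) of all genes lay below. Ccr7, which guides cells to lymph nodes, stood at 0.14 and 0.11 FPKM with Ang II and at 78.9 and 83.0 FPKM with IL-33, and S1pr1, needed for leaving them, at 0.18 and 0.10 FPKM with Ang II, against 20.2 and 19.0 FPKM with IL-33. Satb1 was below by less, at 10.2 and 15.7 FPKM with Ang II, against 18.5 and 17.2 FPKM with IL-33. Il7r, which ILC2s share with naive T cells, stood at 37.7 and 65.7 FPKM with Ang II, against 44.98 and 43.6 FPKM with IL-33 and overlapped. Klf2, chosen after its values were seen, overlapped too, at 9.15 and 0 FPKM with Ang II, against 7.25 and 6.47 FPKM with IL-33.

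Summed markers of other cells did not overlap between the groups either, except those of B cells, and their part was not tested either. The counts below stand beside 33.5% below and 24.4% above over all genes tested. By IL-33 level from 1 to 1000 FPKM, a range some of these markers lie outside, 41.7% to 51.2% of genes lay below. Red blood cell genes summed to 1592 to 3832 FPKM with Ang II and to 24944 to 25147 FPKM with IL-33, with 5 of 5 tested below. Epithelial genes summed to 80.1 to 201 FPKM with Ang II, against 374 to 384 FPKM with IL-33 (5 of 5 below, with Sftpb, Krt8, Krt18 and Nkx2-1 at 0 throughout). Myeloid genes summed to 974 to 2110 FPKM with Ang II, against 2403 to 2445 FPKM with IL-33 (6 of 9 below, 2 above, Flt3 at 0 throughout). NK and ILC1 genes summed to 23.96 to 67.4 FPKM with Ang II, against 98.6 to 102 FPKM with IL-33 (4 of 6 below, 0 above, with Ncr1, Klrb1c, Klre1 and Tbx21 at 0 throughout). B cell genes summed to 8.47 to 99.3 FPKM with Ang II, against 44.95 to 48.1 FPKM with IL-33 (1 of 3 below, 0 above). Of 19 tested ILC2 identity genes, 5 were above and 3 below, with a median of 0.00, and of 16 housekeeping genes 4 were above and 7 below, with a median of -0.12.

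Genes of like pattern were found as the nearest in log2(FPKM + 1) over the 4 libraries, by Euclidean distance, in which the nearly equal IL-33 libraries weigh as 2. Nearest to Cd3d were Pla2g7 (distance 0.47), Bcl3 (0.65) and Dhrs7b (0.69), and 12 genes lay within a distance of 1. Nearest to Cd247 were Sac3d1 (0.058), Suox (0.075) and Ch25h (0.083), and 232 genes lay within a distance of 1. Nearest to Trbc2 were Prdx1 (0.43), Lgals3 (0.54) and Arg1 (0.60), with 11 genes within a distance of 1.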

How the data were processed

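FPKM per gene, with 2 decimals, were deposited by the authors per the file headers, 1 column per sample. The submitters' processing notes name HISAT, StringTie, edgeR and mm10. Tool versions, annotation and strand handling were not given in the sources used here. Per the labels' protocols, cDNA from 500 cells was amplified by PCR with no molecular identifiers named, so FPKM carry amplification error too. FPKM are not counts, so no count model was used, and depth is unknown. Of 55401 gene models, 55141 matched GENCODE M21, which gave coordinates and exon lengths. Gene models overlapping the 10 genes reached at most 3.18 FPKM.

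The IL-33 libraries were averaged and counted as 1 sample. The 9215 genes averaging 1 FPKM or more across the 3 columns were fitted on log2(FPKM + 1) with limma 3.58.1 (lmFit, eBayes with trend, two-sided, Benjamini-Hochberg, threshold 0.05) in R 4.3.3, checked on simulated data. That fit gives p-values for lists only. Only the 2 Ang II libraries give a spread, which the single IL-33 value is assumed to share; it may be technical. A gene is above or below when both Ang II libraries lie outside both IL-33 values.

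The members and lists were chosen with earlier results of these data known. Named are all 10 members, up to 4 of the most abundant genes of a list, the 4 most abundant segments and the 3 genes nearest to Cd3d, Cd247 and Trbc2; others are said to have been chosen after their values were seen, and genes listed at 0 or near it are named as such.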

Additional observations from a re-analysis of the deposited data

How the results depend on the processing

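Treating the IL-33 libraries as separate replicates gave 457 higher and 1090 lower genes by limma, against 0 and 0 with them as 1 sample; libraries that differ by about counting noise understate the spread between samples. With the replicate number as a block as well, 0 were higher and 0 lower. Deviations of same-numbered libraries from their group means correlated at -0.019 across genes. The IL-33 libraries differ by about counting noise, so this value cannot show whether same-numbered samples were paired. The count stayed at 0 with a pseudocount of 0.1, other filters, no trend, 3 other scalings and either IL-33 library left out; leaving out an Ang II library leaves no residual degrees of freedom and no count. Scaling to TPM moved the median log2 difference of all genes tested to 0.16.

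Of the 10 genes, 9 to 10 were below and 0 to 1 above with each library left out in turn, the 1 above being Lck without Ang II replicate 2, where its log2 difference was 0.25 in place of -1.26 (and -2.76 without Ang II replicate 1). Either Ang II library alone also moved Trac (-2.48 without replicate 1, -0.29 without replicate 2), Trbc2 (-1.75 and -0.40), Trbc1 (-0.49 and -0.21) and Trdc (-0.31 and -2.47), by over 1.5 times in at least 1 of the 2 cases. Cd3d was at -1.38 without Ang II replicate 2. Without replicate 1 its difference rests on a listed 0 and is set by the pseudocount, so none is given. The median of the 10 ranged from -2.59 without Ang II replicate 1 to -1.34 without Ang II replicate 2, and was -2.35 with a pseudocount of 0.1. Genes of the 8 lists above the IL-33 libraries numbered 16, and 18 to 31 with a library left out, the highest being 31 without Ang II replicate 1 and 30 without replicate 2, since a single library is less often overlapped. Values below about 1 FPKM rest on few fragments.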
